A study of Mus musculus with 8 samples.

Results

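The Zscan4, Tcstv and Usp17l genes are multi-copy mouse genes of the 2-cell embryo, and 10 of them, given by gene name, are described: Zscan4c, Zscan4d, Zscan4f, Tcstv1, Tcstv3, Usp17la, Usp17lb, Usp17lc, Usp17ld and Usp17le. Of these 10 genes, 8 had a row among the 37310 genes counted in all libraries, namely 3 Zscan4 and 5 Usp17l genes. Tcstv1 and Tcstv3 were not analysed here. The study, titled as a screen of RNA helicases, measured poly-A RNA of mouse embryonic stem (ES) cells after knockdown (KD) of eIF4A3, the helicase core of the complex that marks exon junctions on spliced RNA. Cells of the J1 line (strain 129S4/SvJae) gave 3 groups of 2 libraries: eIF4A3 knockdown with Ccnb1 overexpression (KD+Ccnb1), eIF4A3 knockdown with a control overexpression construct (KD), and control knockdown with control overexpression (control). Ccnb1 encodes cyclin B1, which activates Cdk1 as cells enter mitosis. Cells of the CCE line (strain 129/Sv) gave 2 libraries of eIF4A3 knockdown, whose labels name no overexpression construct, and CCE control cells were not analysed here. All groups share the same handling per the labels: ES cells kept without feeders in serum and LIF were transfected, drug selected, infected with lentivirus and kept in puromycin at 1 µg/mL over 2.5 days, with harvest on day 4.5 after infection. The labels do not say whether a group is 1 clone or whether its libraries came from separate cultures, so p-values measure the spread between these libraries, which may be technical.

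Zscan4 genes encode SCAN-domain zinc finger proteins that are switched on briefly in the late 2-cell embryo, and in ES cells they are seen in a small and changing share of cells, where Zscan4 is known to act in telomere lengthening. Usp17l genes, also called Dub genes, encode deubiquitinating enzymes, the first of which were found as cytokine-induced genes of mouse blood cells. Tcstv1 and Tcstv3 belong to a variable gene group transcribed at the 2-cell stage. In mouse ES cells the transcription factor Dux is known to turn on many 2-cell genes together. In RNA from bulk cultures, fewer cells of a kind and less RNA per cell cannot be told apart.

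The sequence just upstream of each gene shows how alike the copies are. RefSeq's promoter table (GRCm38.p6) matched 7 of the 10 genes, all on chromosome 7, with no entry for Tcstv1, Tcstv3 and Usp17le. In 6 of these 7 promoters, the 250 bases before the start site held TATAAA, the core letters of a TATA box, on either strand, against 12.4% of the 32851 promoters of the table. The 3 Zscan4 windows below, 120 bases each and lined up on that match, are shown in lower case with TATAAA in capitals, 5′ to 3′ on the gene's own strand. They lie at chr7:11005601-11005720 on the plus strand for Zscan4c, chr7:11166184-11166303 on the minus strand for Zscan4d and chr7:11397794-11397913 on the plus strand for Zscan4f.
Zscan4c: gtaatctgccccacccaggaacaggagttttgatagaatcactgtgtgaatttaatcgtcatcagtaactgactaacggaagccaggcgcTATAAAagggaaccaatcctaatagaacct
Zscan4d: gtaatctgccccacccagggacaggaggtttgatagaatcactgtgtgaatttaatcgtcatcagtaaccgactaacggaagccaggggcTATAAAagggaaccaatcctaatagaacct
Zscan4f: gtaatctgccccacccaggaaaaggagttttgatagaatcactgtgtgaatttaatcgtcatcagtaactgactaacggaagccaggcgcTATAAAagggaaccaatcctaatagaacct
Zscan4c and Zscan4f matched at 119 of the 120 bases, Zscan4c and Zscan4d at 116, and Zscan4d and Zscan4f at 115. None of the 3 windows overlapped an exon of the GENCODE M21 annotation.

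A pair of Usp17l promoters is shown in the same way, since Usp17lc and Usp17ld are the 2 Usp17l genes that share most transcript sequence. Their windows lie at chr7:103416518-103416637 on the plus strand for Usp17lc and chr7:103252586-103252705 on the minus strand for Usp17ld, and neither overlapped an M21 exon.
Usp17lc: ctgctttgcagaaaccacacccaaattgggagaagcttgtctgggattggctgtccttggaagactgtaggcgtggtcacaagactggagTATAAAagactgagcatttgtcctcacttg
Usp17ld: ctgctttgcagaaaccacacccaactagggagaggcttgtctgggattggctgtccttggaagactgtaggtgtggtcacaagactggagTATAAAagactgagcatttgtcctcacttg
These 2 windows matched at 116 of 120 bases, while the Zscan4 and Usp17l windows matched each other at 33 to 38 of 120 bases. The core of the mouse DUX motif and TGCACAC, the ZSCAN4 motif, were also searched on both strands of the same 250 bases. Neither was found in any of the 7 promoters, against 0.0304% and 3.67% of all promoters. A match or its lack says only whether these letters stand in this window.

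Transcripts of some members share so much sequence that reads cannot be told apart. In the longest M21 transcript of each gene, windows of 100 bases were compared with all other genes by exact match on both strands. Zscan4f had 10.5% of its windows in no other gene, and shared 69.6% with Zscan4c and 74.9% with the pseudogene Zscan4-ps2. Zscan4c had 27.2% and Zscan4d 70.4% of windows of their own. Among the Usp17l genes the share ran from 60.5% for Usp17ld to 96.2% for Usp17la, and Usp17lc and Usp17ld shared 32.3% and 39.5% of their windows with each other. Counts of Zscan4c and Zscan4f, and to a lesser degree of Usp17lc and Usp17ld, are therefore uncertain as to the copy, and Zscan4a, Zscan4b, Zscan4e and the 3 Zscan4 pseudogenes were not analysed here.

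**Figure D1:**
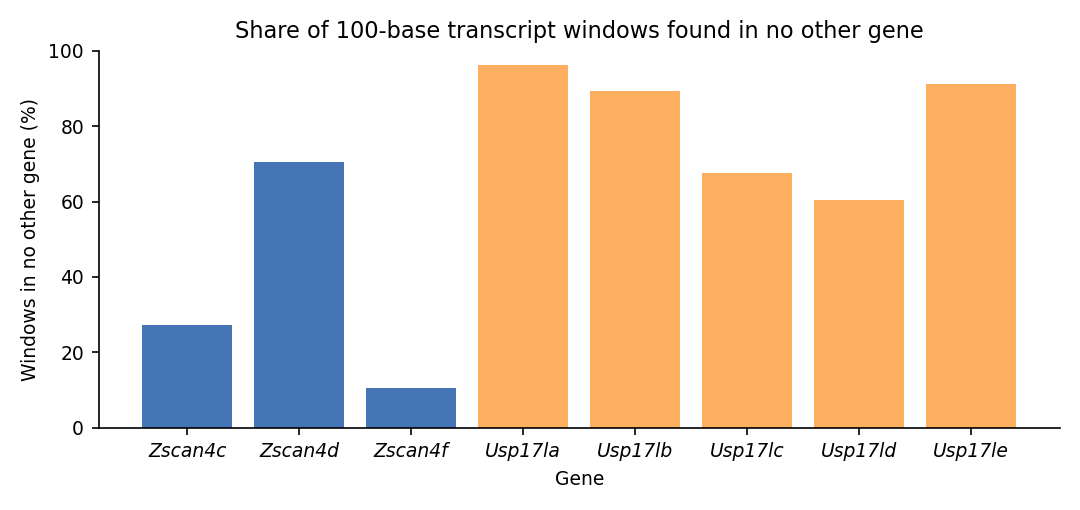
Share of 100-base windows of each gene's longest transcript (percent, vertical axis) that occur in no other gene, for the 3 Zscan4 genes (blue) and the 5 Usp17l genes (orange). Zscan4f had the lowest share, 10.5%, and Usp17la the highest, 96.2%.

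Libraries held 5871830 and 6620504 gene counts in KD+Ccnb1, 4398141 and 3596615 in KD, 5740965 and 8340023 in control, and 23966825 and 25574740 in CCE. The KD libraries stood apart before any gene was tested: unaligned reads made up 40.8% and 45.2% there, against 15.7% to 15.9% in the other J1 libraries, and the spread between the 2 KD libraries was 22.0 times Poisson noise, against 1.88 times in KD+Ccnb1 and 3.41 times in control. Reads set aside for low alignment quality made up 0% in CCE, against 20.6% to 33.7% in J1 libraries, so the 2 lines were counted differently and their levels are set side by side only. Eif4a3, the targeted gene, stood at 47.3 and 53.5 counts scaled to library size (CPM) in KD+Ccnb1, 75.7 and 37.5 CPM in KD and 73.5 and 83.7 CPM in control, so KD replicate 1 lay among the control libraries. Its difference from control was not called in KD+Ccnb1 (adjusted p = 0.190) or in KD (adjusted p = 0.211, edgeR's quasi-likelihood test). Ccnb1 was 136 and 131 CPM in KD+Ccnb1, 101 and 126 CPM in KD and 135 and 129 CPM in control, so the libraries labelled KD+Ccnb1 overlapped with the control libraries in the gene's total count. KD and KD+Ccnb1 therefore stand throughout for the libraries so labelled. All 8 ES cell markers, among them Pou5f1, Nanog and Sox2, were detected in every library.

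Every one of the 8 genes was highest in KD+Ccnb1, lower in KD and lowest in control by its mean, except Usp17lc, which was at 0 in KD. Zscan4d, the member with the most reads in KD+Ccnb1, had 163 CPM in both KD+Ccnb1 libraries, 22.7 and 20.6 CPM in KD and 1.22 and 1.92 CPM in control. Zscan4c had 57.7 and 59.8 CPM in KD+Ccnb1, 14.3 and 19.5 CPM in KD and 1.05 and 0.600 CPM in control. Neither gene overlapped between any of the J1 groups. The share of tested genes that lay higher without overlap is given with each comparison below. Zscan4f, whose reads are the hardest to place, had 7.83 and 10.7 CPM in KD+Ccnb1, 0 and 7.23 CPM in KD and no count in either control library. Its 2 KD libraries were far apart, and the higher one came close to the lower KD+Ccnb1 library.

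Among the Usp17l genes, Usp17le had 80.4 and 79.3 CPM in KD+Ccnb1, 0 and 8.06 CPM in KD and no count in control. Usp17lb had 73.6 and 74.6 CPM in KD+Ccnb1, 14.1 and 23.4 CPM in KD and 1.05 and 0.480 CPM in control. Usp17la had 60.3 and 63.0 CPM in KD+Ccnb1, 5.46 and 27.8 CPM in KD and 0 and 0.360 CPM in control. Both were high in each KD+Ccnb1 library, and the 2 KD libraries differed more for Usp17la than for Usp17lb. Usp17lc had 59.3 and 48.3 CPM in KD+Ccnb1, no count in either KD library and 0.523 and 0.719 CPM in control, that is 0 reads in KD against 3 and 6 reads in control. Usp17ld had 20.4 and 20.7 CPM in KD+Ccnb1, 0 and 2.50 CPM in KD and no count in control. For Zscan4f, Usp17ld and Usp17le all KD reads came from replicate 2, with 26, 9 and 29 reads.

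**Figure D2:**
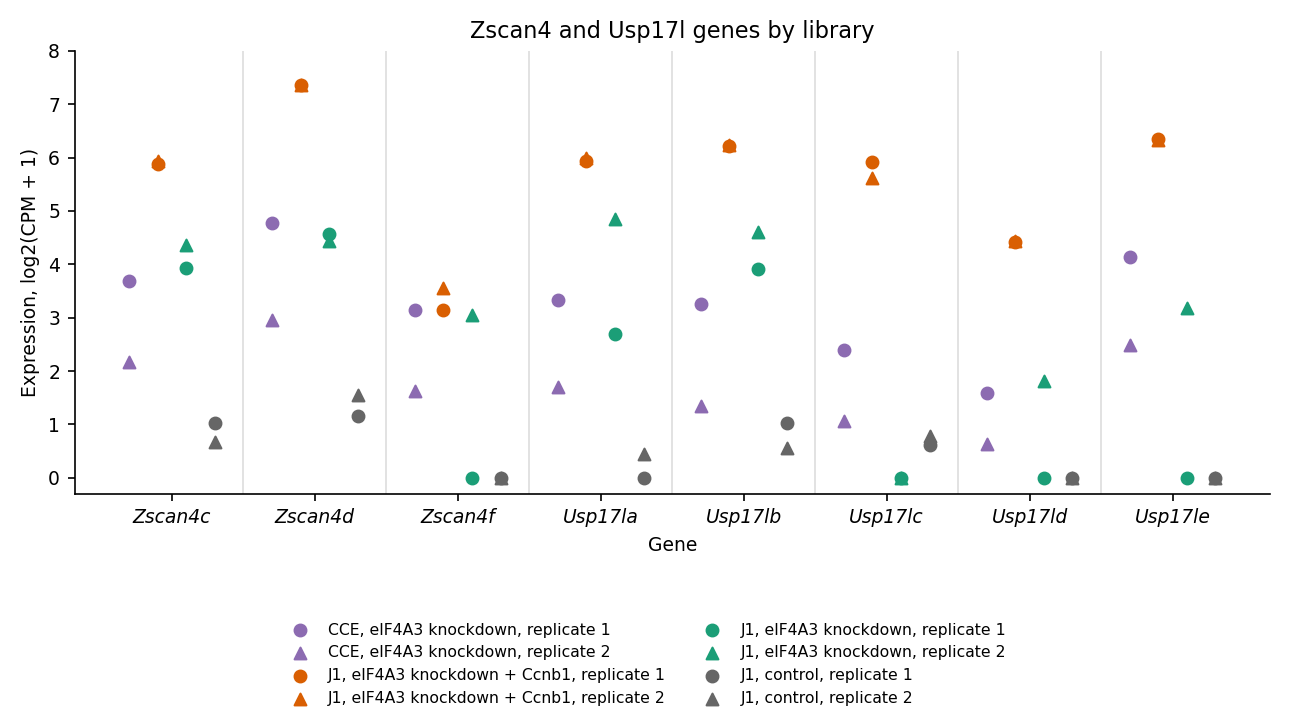
Expression of the 8 genes in each library as log2(CPM + 1), with 1 point per library, circles for replicate 1, triangles for replicate 2 and CCE libraries in purple. KD+Ccnb1 libraries (orange) lie above the KD (green) and control (grey) libraries for every gene, and KD replicate 1 is at 0 for Zscan4f, Usp17lc, Usp17ld and Usp17le.

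Counts per length of transcript differed widely between members. The length was that of the whole transcript, with no account of sequence shared between copies. Windows in no other gene made up 10.5% of Zscan4f, 27.2% of Zscan4c and 70.4% of Zscan4d. The order below therefore need not be the order of expression. In KD+Ccnb1 replicate 1, Zscan4d stood at 72.0 CPM per kilobase (kb), followed by Usp17lb at 47.2, Usp17le at 42.6, Zscan4c at 25.4, Usp17lc at 24.7, Usp17la at 22.7, Usp17ld at 10.3 and Zscan4f at 4.28 CPM per kb. Replicate 2 gave the same order except that Usp17la (23.7 CPM per kb) stood above Usp17lc (20.1 CPM per kb), so that pair did not differ beyond its spread. In KD, Usp17lb (9.05 and 15.0 CPM per kb), Zscan4d (10.01 and 9.06 CPM per kb), Usp17la (2.06 and 10.5 CPM per kb) and Zscan4c (6.29 and 8.55 CPM per kb) overlapped as neighbours. In both CCE libraries Zscan4d led (11.6 and 2.96 CPM per kb), Usp17le followed (8.85 and 2.45 CPM per kb) and Usp17ld was lowest (1.01 and 0.275 CPM per kb).

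The first comparison set the libraries labelled KD against control. In KD, 4 of the 8 tested members rose against control, both Zscan4c and Zscan4d and the pair Usp17la and Usp17lb. The background was 11.0% of the 14462 tested genes called higher. For those 4 genes both KD libraries were above both control libraries, as for 30.9% of tested genes. Zscan4c was higher by a log2 fold change of 4.22 (SE 0.39, adjusted p = 0.00180) and Zscan4d by 3.57 (SE 0.24, adjusted p = 0.000725, edgeR's quasi-likelihood test with Benjamini-Hochberg adjustment over all genes). Usp17lb was higher by 4.49 (SE 0.47, adjusted p = 0.00254) and Usp17la by 6.02 (SE 1.18, adjusted p = 0.0170, edgeR). With its 10 control reads taken at the control floor of 10.2 reads, the ratio for Usp17lb was 25.2-fold. Since reads were found in control, that ratio is no lower bound, and the fitted fold was 22.5. Usp17la rested on 3 control reads, under that same floor. Its ratio of KD to control was 72.8-fold (95% exact interval 24.3 to 358, counting error only). That interval leaves out the spread between libraries, so the ratio is no measure of size. Usp17lc was called lower in KD (adjusted p = 0.0301, edgeR), at a background of 17.9% called lower, but its 0 reads in KD and 9 in control lie at or under the floors of their groups, so no fold is given. A floor is 3 molecule equivalents over the group, where 1 molecule equivalent is the number of reads that equals the group's spread over Poisson noise, which comes to 8.25 CPM in KD and 0.725 CPM in control. Zscan4f, Usp17ld and Usp17le were not called (adjusted p = 0.123, 0.139 and 0.126, edgeR). In a fit of KD and control alone 4 of the 8 genes passed the filter on low counts, and Zscan4f, Usp17lc, Usp17ld and Usp17le passed in the fit of all J1 libraries only through KD+Ccnb1, where they are high. In the fit of KD and control alone Usp17la was not called (adjusted p = 0.0747, edgeR). Fewer members were called without either control or either KD+Ccnb1 library and more without KD replicate 1, as over all tested genes.

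The second comparison set the libraries labelled KD+Ccnb1 against those labelled KD. Both KD+Ccnb1 libraries were above both KD libraries for all 8 genes, a pattern that 39.1% of tested genes showed. By the test 4 of the 8 tested members rose, at a background of 22.8% called higher. Zscan4f, Usp17lc, Usp17ld and Usp17le passed the filter on low counts only through KD+Ccnb1, where they are high. The filter thus favoured a rise in these genes. Zscan4d rose by a log2 fold change of 2.99 (SE 0.19, adjusted p = 0.000368), Usp17lb by 2.07 (SE 0.35, adjusted p = 0.00815) and Zscan4c by 1.88 (SE 0.31, adjusted p = 0.00697, edgeR). Usp17lc, with 668 reads against 0, was at least 6.48-fold higher in KD+Ccnb1 (adjusted p = 0.000779, edgeR). That bound takes KD at its floor. Usp17le (log2 fold change 4.44, adjusted p = 0.0503), Usp17ld (4.13, adjusted p = 0.0919), Usp17la (1.98, adjusted p = 0.0963) and Zscan4f (1.44, adjusted p = 0.580) were not called by edgeR. The KD reads of Usp17le, Usp17ld and Zscan4f lie under the KD floor of 66.0 reads. With KD taken at that floor the ratios of the 3 genes were 9.67-fold, 2.49-fold and 1.13-fold. Since KD held reads of these genes, the ratios are no lower bounds and show no minimum rise. None was called lower, at a background of 16.0%. Fewer members were called without either KD+Ccnb1 library and more without either KD library, as over all tested genes.

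In the third comparison, KD+Ccnb1 against control, 7 of the 8 tested members rose and none fell, at backgrounds of 9.35% called higher and 10.5% called lower. Zscan4f, Usp17lc, Usp17ld and Usp17le passed the filter on low counts only through KD+Ccnb1, where they are high. The filter thus favoured a rise in these genes as well. Both KD+Ccnb1 libraries were above both control libraries for all 8 genes, as for 45.3% of tested genes. Zscan4d was higher by a log2 fold change of 6.57 (SE 0.24, adjusted p = 0.000309), Usp17lb by 6.56 (SE 0.47, adjusted p = 0.00121), Usp17lc by 6.29 (SE 0.44, adjusted p = 0.00225) and Zscan4c by 6.10 (SE 0.40, adjusted p = 0.000969, edgeR). Usp17lc and Usp17lb had 9 and 10 control reads, just under the control floor of 10.2 reads. With control taken at that floor their ratios were 73.7-fold and 102-fold, which are no lower bounds, since reads were found in control. Usp17la had 3 control reads, also under that floor, and was called higher (adjusted p = 0.00877, edgeR). Its ratio was 289.7-fold (95% exact interval 98.8 to 1408, counting error only). The interval leaves out the spread between libraries, so the ratio is no measure of size. Usp17le and Usp17ld, with no read in control, were at least 110.0-fold and at least 28.4-fold higher (adjusted p = 0.0280 and 0.0431, edgeR). Zscan4f was at least 12.9-fold higher but was not called (adjusted p = 0.102, edgeR). All 3 comparisons are contrasts of 1 fit and share libraries: KD+Ccnb1 and KD are each set against the same control pair. Fewer members were called without any 1 control or KD+Ccnb1 library and more without either KD library. Over all tested genes the number called also ranged widely.

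**Figure D3:**
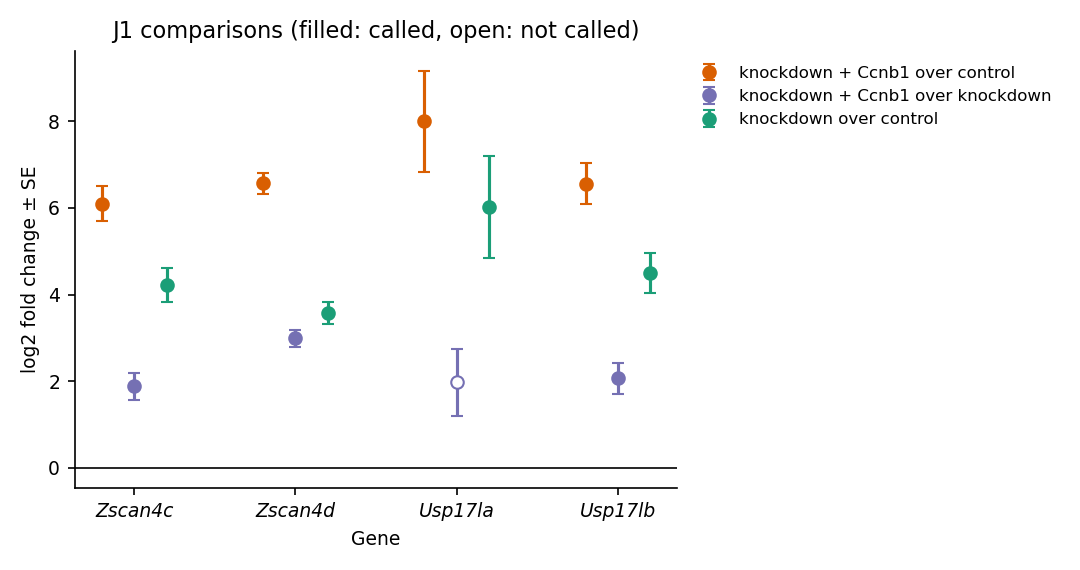
log2 fold change ± SE (vertical axis) of the 4 genes with reads in every J1 group in each of the 3 J1 comparisons, with filled points for called and open points for not called differences. KD+Ccnb1 over control gave the largest change for each gene, from 6.10 for Zscan4c to 7.99 for Usp17la. Usp17la and Usp17lb had 3 and 10 control reads, under the control floor of 10.2 reads, so their fitted changes from control are no measure of size.

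Summed over the family, the Zscan4 genes reached 229 and 233.5 CPM in KD+Ccnb1, 37.1 and 47.3 CPM in KD and 2.26 and 2.52 CPM in control. The Usp17l genes reached 293.9 and 285.9 CPM in KD+Ccnb1, 19.6 and 61.7 CPM in KD and 1.57 and 1.56 CPM in control. In both families the libraries of a J1 group lay close together except in KD, where the Usp17l sum of replicate 1 was 0.317 times that of replicate 2. On the log2 scale of mean CPM, the Zscan4 sum was higher by 6.60 in KD+Ccnb1 than in control, by 2.46 in KD+Ccnb1 than in KD and by 4.14 in KD than in control. The same differences for the Usp17l sum were 7.54, 2.83 and 4.70.

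**Figure D4:**
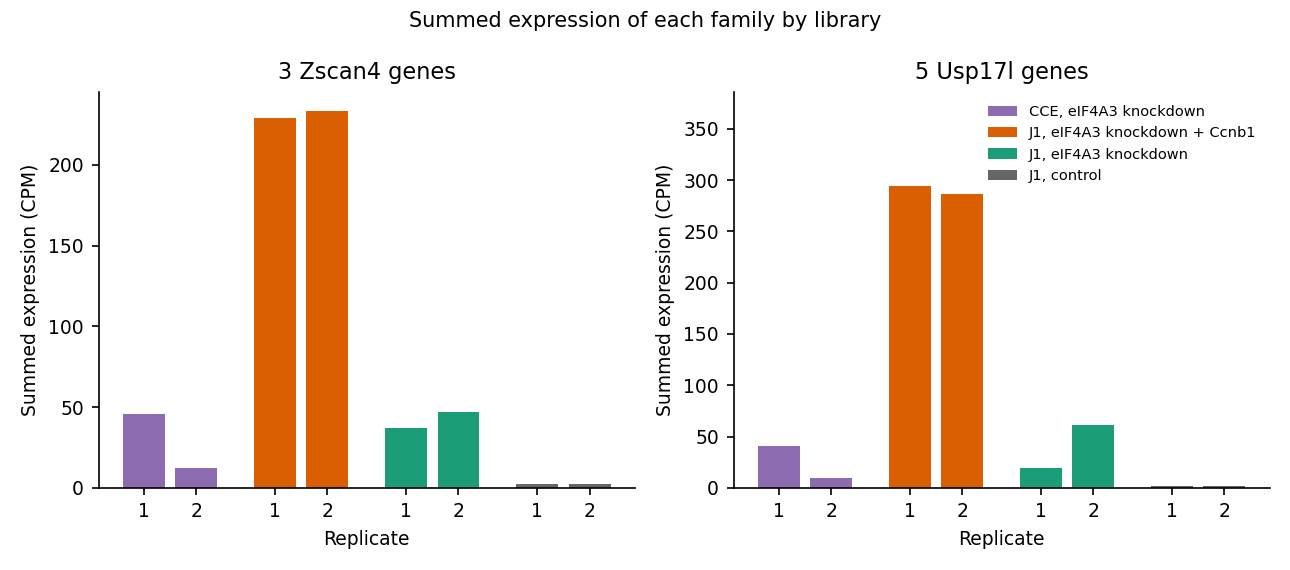
Summed expression (CPM, bars from 0, 1 bar per library) of the 3 Zscan4 genes (left) and the 5 Usp17l genes (right), grouped by line and treatment. KD+Ccnb1 bars are highest in both families, at 229 and 233.5 CPM for Zscan4 and 293.9 and 285.9 CPM for Usp17l.

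The make-up of each sum was not tested between groups. Zscan4d gave 71.4% and 69.8% of Zscan4 reads in KD+Ccnb1, and Zscan4f 3.42% (95% exact interval 2.51 to 4.54) and 4.59% (3.60 to 5.76). In control Zscan4d gave 53.8% of 13 and 76.2% of 21 reads, on either side of the KD+Ccnb1 shares, and in KD it gave 61.3% and 43.5%. In KD, Zscan4f gave 0% of 163 reads in replicate 1 and 15.3% of 170 reads in replicate 2. The exact 95% upper limit for replicate 1 was 2.24%. Exact limits of these shares treat each read as independent. KD varied at 22.0 times Poisson noise, so that limit is too low. A difference in this share between the 2 KD libraries is therefore not shown. In CCE, whose reads were counted differently, Zscan4f gave 17.1% and 16.9%. With 10.5% of its windows in no other gene, the share of Zscan4f may depend on how reads were placed, so the lines are not compared. Usp17le was the largest part of Usp17l reads in KD+Ccnb1 (27.3% and 27.7%) and in CCE (41.1% and 45.9%). In KD, Usp17lb led in replicate 1 with 72.1% of 86 reads and Usp17la in replicate 2 with 45.0% of 222 reads.

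The 2 CCE libraries, both labelled eIF4A3 knockdown, differed in every member. The Zscan4 sum was 46.0 CPM in replicate 1 and 12.3 CPM in replicate 2, and the Usp17l sum 40.6 and 10.05 CPM. Each of the 8 genes was higher in replicate 1, by 3.42-fold for Zscan4c up to 5.64-fold for Usp17lb, with a median of 3.84-fold. Zscan4d had 26.2 CPM in replicate 1 and 6.73 CPM in replicate 2, and Usp17le 16.7 and 4.61 CPM. Among the 14355 genes with at least 50 reads in the 2 libraries together, 1.42% were at least 2-fold higher in replicate 1, 0.613% were at least 2-fold lower, and the median ratio was 1.00. With 1 library on each side there is no test of this difference.

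Other 2-cell genes shared the split between the CCE libraries in part: 7 of 15 with enough reads were at least 2-fold higher in replicate 1. The highest ratios were 3.43 for Gm4027, 3.25 for Tmem92 and 3.24 for Gm12794, and the median was 1.95. None of 4 activators, 16 repressors or 13 telomere genes reached 2-fold. Summed ES cell markers were 3420 and 3858 CPM in replicates 1 and 2, germ cell and oocyte markers 102.0 and 88.6 CPM, primitive endoderm markers 94.96 and 122 CPM, trophectoderm markers 228 and 290.9 CPM, and fibroblast markers 38.8 and 31.9 CPM. Their part in the result was not tested.

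**Figure D5:**
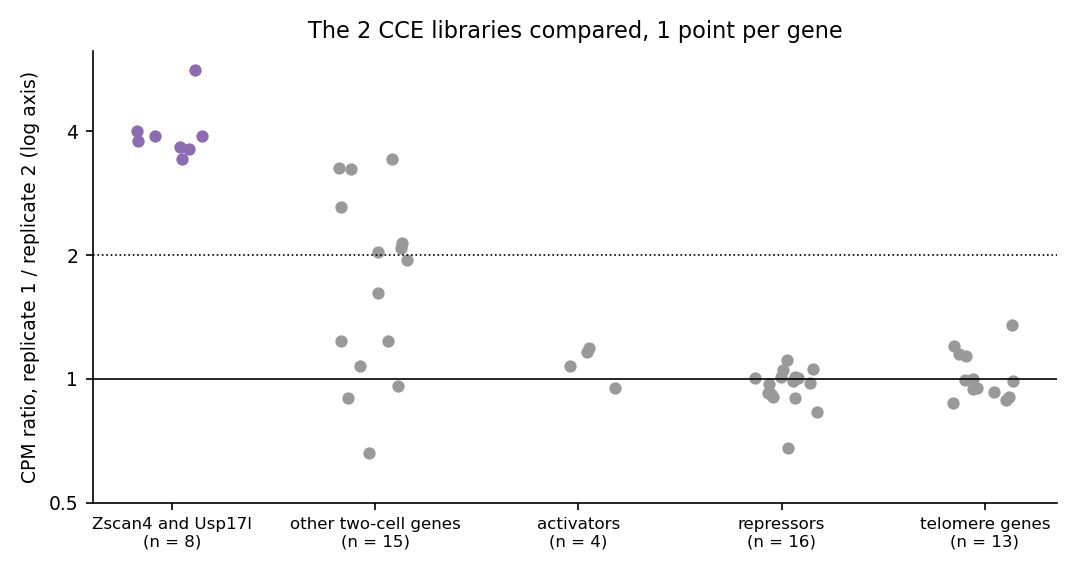
Ratio of CPM in CCE replicate 1 to CCE replicate 2 (log axis, 1 point per gene with at least 50 reads) for the members and the other gene lists, with a solid line at 1 and a dotted line at 2. All 8 members lie above the dotted line, between 3.42 and 5.64, and no activator, repressor or telomere gene does.

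Other genes of the 2-cell programme were tested in the same fit. Of 62 such genes listed, 46 had a row and 26 were tested. In KD against control 6 rose and 1 fell, at backgrounds of 11.0% called higher and 17.9% called lower. Their median log2 fold change was 1.70 as fitted and 0.34 with genes at 0 reads in a group set to their bound, or to 0 where none is given, against -0.08 over all tested genes as fitted. Fewer were called without either control library and more without either KD library, as over all tested genes. Tmem92, a 2-cell transcript, stood out at 319 and 368 reads in KD+Ccnb1, 78 and 30 in KD and 0 and 1 in control. It was higher in KD than in control by a log2 fold change of 7.01 (SE 0.77), followed by Spz1, a testis transcription factor gene, at 6.81 (SE 0.85) and Gm8300 at 5.20 (SE 0.55). Tmem92, Spz1 and Gm8300 had 1, 2 and 5 control reads, under the control floor of 10.2 reads, so these values are no measure of size. Eif1a, a translation initiation factor, fell by 0.81 (SE 0.20), and Fbxo15 and Ddit4l, an inhibitor of mTOR signalling, rose by 0.69 (SE 0.14) and 1.81 (SE 0.24). These calls are by edgeR with all-gene adjustment.

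In KD+Ccnb1 against KD, 12 of the 26 were called higher and none lower, at backgrounds of 22.8% and 16.0%. Tdpoz3, Pramel7, Ubtfl1 and Arg2 had no read in KD or control, so they passed the filter on low counts only through KD+Ccnb1. Such genes could only rise, so the filter favoured a rise in this list. Tdpoz3, Pramel6 and Pramel7, among those 12, had no read in KD and lay under the KD floor in KD+Ccnb1, so for these 3 no rise past the floor was shown. The median was 2.62 as fitted and 1.12 with bounds, against 0.14 over all tested genes. Fewer were called without either KD+Ccnb1 library, as over all tested genes. Arg2, which encodes a mitochondrial arginase, had 14.2 CPM in KD+Ccnb1 on average and no read in KD, so it was at least 1.72-fold higher. Pramef25 and Ubtfl1 also had no read in KD and were at least 1.83-fold and 1.19-fold higher. The smallest called rises were those of Eif1a (0.73, SE 0.20), P4ha2, a subunit of collagen prolyl hydroxylase (0.95, SE 0.28), and Fbxo15, a target of Oct4 in ES cells (1.29, SE 0.14). Against control, 12 of the 26 were called higher in KD+Ccnb1 and none lower, at backgrounds of 9.35% and 10.5%. The filter favoured a rise here as well. No control read was found for 8 of the 26, so the fitted median of 6.69 is no measure of size: with bounds it was 3.57, against 0.07 over all tested genes. Fewer were called without any 1 control or KD+Ccnb1 library, and over all tested genes the number called also ranged widely. Tmem92 was higher by 9.16 (SE 0.75), but rested on 1 control read, under the control floor. Arg2 and Ubtfl1, with no read in control, were at least 19.5-fold and at least 13.6-fold higher. Ddit4l (1.73, SE 0.24), Fbxo15 (1.98, SE 0.14) and P4ha2 (3.12, SE 0.31) gave the smallest called rises. Fbxo15, P4ha2, Gm8300 and Tmem92 were called higher in all 3 comparisons.

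Regulators of the programme did not move as 1 group. Duxf3, the Dux gene of mouse, had 6 and 7 reads in KD+Ccnb1, 0 and 6 in KD and none in control, and was too low to be tested. Of 4 tested activators, Dppa2 (-0.97, SE 0.10), Nelfa (-1.18, SE 0.31) and Trp53 (-0.66, SE 0.07) fell in KD against control, and Dppa4 was not called. The backgrounds were 17.9% called lower and 11.0% called higher. In KD+Ccnb1 against KD, Nelfa rose by 2.42 (SE 0.32), Dppa2 by 1.23 (SE 0.10) and Trp53 by 0.46 (SE 0.07), while Dppa4 fell by 0.68 (SE 0.18). Here 22.8% of tested genes were called higher and 16.0% lower. Against control only Nelfa was called, higher by 1.24 (SE 0.30), at backgrounds of 9.35% called higher and 10.5% called lower. Dppa2 and Dppa4 are known to switch on Dux in mouse ES cells, Nelfa is a subunit of the negative elongation factor, and Trp53 encodes p53.

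Of 16 repressors, 8 fell and none rose in KD against control, at backgrounds of 17.9% called lower and 11.0% called higher. The largest falls were those of Lin28a (-2.08, SE 0.26), an RNA-binding pluripotency protein, Pcgf6 (-1.19, SE 0.14), a Polycomb subunit, and Max (-1.01, SE 0.23), the partner of Myc. Trim28, a corepressor of retroviral elements, fell by 0.84 (SE 0.05) and L3mbtl2, a chromatin reader, by 0.79 (SE 0.08). The smallest called falls were those of Ehmt2, a histone H3 lysine methyltransferase (-0.42, SE 0.10), Chaf1b, a subunit of chromatin assembly factor 1 (-0.47, SE 0.13), and Ncl, which encodes nucleolin (-0.63, SE 0.04). In KD+Ccnb1 against KD, 7 rose and 2 fell, at backgrounds of 22.8% and 16.0%, and the largest rises were those of Zmym2 (1.67, SE 0.18), Rif1, a telomere and replication timing factor (1.59, SE 0.11), and Lin28a (1.58, SE 0.25). Ehmt2 fell by 1.06 (SE 0.11) and Pias4, a SUMO ligase, by 0.64 (SE 0.14), and L3mbtl2 gave the smallest called rise (0.37, SE 0.08). Against control, at backgrounds of 9.35% called higher and 10.5% called lower, Rif1 (1.69, SE 0.11) and Zmym2 (1.32, SE 0.18) rose and 4 fell: Ehmt2 (-1.48, SE 0.11), Pias4 (-0.74, SE 0.13), Trim28 (-0.42, SE 0.05) and L3mbtl2 (-0.42, SE 0.08).

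Telomere genes, listed because Zscan4 is known to act at telomeres, changed in both directions. Of 13 tested, 3 rose and 1 fell in KD against control, at the same backgrounds of 11.0% and 17.9%: the shelterin genes Acd (0.79, SE 0.20) and Terf2 (0.69, SE 0.17) and the helicase gene Rtel1 (0.37, SE 0.10) rose, and the histone chaperone gene Daxx fell by 0.40 (SE 0.10). In KD+Ccnb1 against KD, at backgrounds of 22.8% called higher and 16.0% called lower, Acd (-1.13, SE 0.20), Rtel1 (-1.11, SE 0.10) and Terf2 (-0.80, SE 0.17) fell and Atrx, the partner of Daxx, rose by 0.45 (SE 0.12). In KD+Ccnb1 against control, at backgrounds of 9.35% and 10.5%, Rtel1 (-0.75, SE 0.10), Dkc1, which encodes dyskerin of the telomerase complex (-0.56, SE 0.13), and Daxx (-0.54, SE 0.10) fell and Atrx rose by 0.58 (SE 0.12).

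Markers of other cell types moved with the members in part. Summed primitive endoderm markers were 100.5 and 97.6 CPM in KD+Ccnb1, 40.0 and 33.9 CPM in KD and 11.8 and 14.3 CPM in control. Summed germ cell and oocyte markers were 124.7 and 121.3 CPM in KD+Ccnb1, 46.2 and 67.3 CPM in KD and 21.1 and 20.98 CPM in control. Dazl, a germ cell RNA-binding protein, alone gave 99.1 and 98.3 CPM of this sum in KD+Ccnb1. Without Dazl the germ cell sum was 25.5 and 23.0 CPM in KD+Ccnb1, below the 34.6 and 47.0 CPM in KD and above the 16.4 and 14.1 CPM in control. Trophectoderm markers were 69.7 and 77.3 CPM in KD+Ccnb1, 36.8 and 68.1 CPM in KD and 42.3 and 47.7 CPM in control. Fibroblast markers lay between 18.8 and 36.7 CPM over these 6 libraries, with Postn, Dcn and Col3a1 at 0. Within that sum Col1a1 had 3.07 and 2.72 CPM in KD+Ccnb1, 14.3 and 17.2 CPM in KD and 1.39 and 1.08 CPM in control. Thy1 and Pdgfrb overlapped between KD and control. ES cell markers summed to 7704 and 7765 CPM in KD+Ccnb1, 3944 and 3629 CPM in KD and 8089 and 8050 CPM in control. Their part in the members' levels was not tested.

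Over the 6 J1 libraries, on the log2(CPM + 1) scale, Copb1 (Pearson's r 0.999), Smg1 (0.998), Baz2b (0.998), Tex19.1 (0.996) and Numa1 (0.996) had the pattern most like the summed Zscan4 genes among 13120 candidates. Candidates had a mean of at least 1 CPM. Members, their relatives and genes with predicted or clone names, such as Gm8300, were left out. The coefficient ignores the size of change: Copb1 averaged 59.0, 39.1 and 22.8 CPM in KD+Ccnb1, KD and control, and the Zscan4 sum 231, 42.2 and 2.39 CPM. Impad1, Arid5b and Nexmif (0.997 each) were most like the summed Usp17l genes. The libraries share the 3 groups and their depths, so the coefficients describe these libraries and carry no test.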

How the data were processed

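RNA was measured in 8 libraries of mouse ES cells, grouped by the titles and treatments in the labels. The authors deposited raw read counts for each Ensembl gene as whole numbers. The files also hold 5 summary rows that name no gene, and these entered neither library sizes nor tests: unaligned, low-quality, multiply placed, ambiguous and no-feature reads, the last making up 11.9% to 13.9% of J1 and 48.5% and 49.5% of CCE reads. Per the submitters' processing notes, the tools were HTSeq 0.11.2, edgeR 3.26.8, SAMtools 1.9 and Bowtie2 2.3.4.3, with the build mm9; their roles, settings and strand handling are not given in the sources used here, and reads were of 100 or 150 bases per the labels, without saying which library had which. Symbols came by gene ID from a gene name table that matched 32620 of 37310 rows. CCE files hold 1 further gene row, counted in their totals. Coordinates are GRCm38.p6 and no mm9 coordinate was used.

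The 6 J1 libraries were fitted together, without a replicate block, by edgeR 4.0.16 (quasi-likelihood F test) in R 4.3.3 on the deposited counts (TMM scaling, filterByExpr, 14462 genes, two-sided, Benjamini-Hochberg at 0.05). SE was taken as the size of the log2 fold change divided by the root of F. Levels are CPM based on each library's total gene count, with no TMM factor. A floor is 3 molecule equivalents over a group, 0.452 CPM in KD+Ccnb1, 8.25 CPM in KD and 0.725 CPM in control. It is scaled by the group's spread over Poisson noise. Intervals are exact 95% ones and cover counting error only. For genes at 0 in a group no fitted fold is given. Sequence was compared with Biopython 1.88. Alternatives were DESeq2 1.42.0, other scalings, filters and offsets (mgcv 1.9.3), a replicate block, fits of 2 groups and leaving out each library. The named genes of each list were the 3 highest and 3 lowest called log2 fold changes in a comparison and those of at least 5 CPM called in all 3. The members and lists were chosen with earlier results of these data known.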

Additional observations from a re-analysis of the deposited data

How the results depend on the processing

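Of the 8 members' log2 fold changes, no alternative reversed one. Under the alternatives, 91 values of KD against control kept their side of the threshold, 5 passed it newly and 11 fell short; the numbers were 96, 11 and 4 for KD+Ccnb1 against KD, and 89, 4 and 18 for KD+Ccnb1 against control. In KD against control 4184 genes were called, 2631 with a replicate block and 1760 in a fit of KD and control alone. In KD+Ccnb1 against control 2865 were called, 4656 by DESeq2 and 8658 in a fit of those 2 groups alone. Members called in KD against control were 5, and 3 in the fit of those 2 groups. Other 2-cell genes called in KD+Ccnb1 against KD were 12, and 6 with a minimum of 5 CPM, 6 with the replicate block and 7 with a GC content and length offset; against control they were 12, and 24 in the fit of those 2 groups alone. The Usp17l sum of KD+Ccnb1 over control was 7.46 on TMM-scaled values, against 7.54.

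Leaving out 1 library, which assumes that a lone library varies like the other groups, gave ranges of 701 to 10225, 1674 to 11078 and 254 to 8806 genes called in KD against control, KD+Ccnb1 against KD and KD+Ccnb1 against control. The ranges were 3 to 7, 2 to 8 and 3 to 8 for members and 3 to 15, 1 to 22 and 3 to 26 for other 2-cell genes. High ends came from leaving out a KD library. For the Zscan4 sum the log2 ratios ranged over 3.95 to 4.31, 2.29 to 2.64 and 6.52 to 6.67, and for the Usp17l sum over 3.64 to 5.30, 2.23 to 3.89 and 7.52 to 7.55. The cause was not tested. The replicate numbers do not pair the samples: deviations of same-numbered libraries correlated at -0.00204, -0.0305 and 0.0274 over 14462 genes for control with KD, control with KD+Ccnb1 and KD with KD+Ccnb1. With the block, Usp17lc in KD against control, and Usp17ld and Usp17le in KD+Ccnb1 against control, were no longer called.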
